A study of Mus musculus with 8 samples.

Results

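The genes described here are 38 genes of glucose metabolism and the hypoxia response: the steps from glucose uptake to pyruvate, the enzymes that regulate or follow them, the pentose phosphate pathway, and the hypoxia-inducible factor Hif1a with its oxygen sensors and some of its targets. They were chosen by gene symbol, with the transporters that export lactate left out, and they match 39 of the 26642 rows of the count table, because Aldoa has 2 rows. The cells were CT26, a mouse colon carcinoma line, grown in RPMI medium with serum and antibiotics under humidified air with added CO2, in 2 genotypes. The knockout group (KO, 4 libraries) carries a Tead1/4 knockout, and the wild-type group (WT, 4 libraries) was grown in the same way. Messenger RNA libraries were made from total RNA. The labels do not say how the knockout was made, how many clones it rests on, whether the 4 libraries of a genotype came from separate cultures, or how much oxygen the cells had. The p-values below therefore measure only how these libraries vary, and that variation may be technical.

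Glycolysis splits glucose into pyruvate and yields ATP and building blocks, and its early, committed steps are carried out by families of isozymes that differ in tissue and regulation. The pentose phosphate pathway branches off at glucose 6-phosphate and supplies NADPH and ribose for nucleotides. HIF1A is a transcription factor whose protein is hydroxylated by EGLN enzymes and destroyed when oxygen is plentiful. When it is stable it raises the transcription of glucose transporters and many glycolytic enzymes, and tumour cells often run this programme strongly. TEAD1 and TEAD4 bind DNA and act with the coactivators YAP and TAZ.

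Library totals ranged from 29679405 to 32774905 counts, and levels are given in CPM, counts brought to a common library size with TMM factors. Both genes named in the knockout kept reads: Tead1 averaged 67.5 ± 12.4 CPM in KO and 206 ± 80.8 CPM in WT (SD, n = 4 each), and Tead4 averaged 29.3 ± 6.08 CPM in KO and 47.8 ± 12.2 CPM in WT. KO library 1 stood apart from KO libraries 2 to 4. It had 14345 rows with a count above 0, against 17759 to 17948 in KO libraries 2 to 4 and 14566 to 15430 in the WT libraries. The summed level of 12 proliferation markers was 2261 CPM in KO library 1. It was 1005, 598 and 493 CPM in KO libraries 2, 3 and 4, and 3239 to 4864 CPM in WT. Of the 12, 9 fell (75%), against 20.6% of all rows tested. WT libraries 1 and 4, and likewise 2 and 3, were closer to each other than to the other WT libraries, although no pair agreed within sampling noise. The labelled colon carcinoma identity is thinly marked: Epcam had no counts in any library, 5 of 12 colon epithelial markers passed the filter on low counts, and the most abundant were Krt18 with 76.3 ± 8.65 CPM in KO and 38.5 ± 2.93 CPM in WT, and Krt20 with 47.4 ± 9.12 CPM in KO and 34.6 ± 19.2 CPM in WT. Krt18 (adjusted p = 0.00107) and Lgals4, at 1.77 to 9.44 CPM in KO and 0.110 to 0.375 CPM in WT (adjusted p = 0.00084), rose. Summed fibroblast markers were at 4039 to 6122 CPM in KO and 3853 to 5501 CPM in WT, most of it Vim. However, 4 of the 7 tested (57.1%) rose with no overlap. Of all rows tested, 20.9% rose and 40.7% did not overlap. Dcn was at 2.37 to 14.4 CPM in KO and 0 to 0.142 CPM in WT (adjusted p = 0.000803), Pdgfra was 4.48-fold higher in KO (adjusted p = 0.000837), Col3a1 4.58-fold (adjusted p = 0.0152) and Pdgfrb 2.14-fold (adjusted p = 0.0260). Summed leukocyte markers were at 10.2 to 16.5 CPM in KO and 1.58 to 3.75 CPM in WT, with Cd3e, Cd8a and Adgre1 at 0, and endothelial ones at 1.30 to 11.1 CPM in KO and 0 to 0.438 CPM in WT, with Kdr and Emcn at 0. In bulk RNA, fewer cells of a type and less RNA per cell cannot be told apart. The part of these lists and libraries in the results below was not tested.

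Of the 39 rows, 33 passed the filter and were tested, and 12 changed between KO and WT (edgeR quasi-likelihood test, adjusted p under 0.05 over all rows tested), which is 36.4% against 41.6% of the 13265 rows tested. 3 rose in KO (9.09%, against 20.9% of all rows) and 9 fell (27.3%, against 20.6% of all rows). The share of rows called was thus below that of the whole table, and the calls leaned to the lower side. The median log2 fold change of the 33 rows was -0.36, against 0.02 over all rows tested, and 26 of the 33 values were negative. For 9 of the 33 rows (27.3%) the KO and WT libraries did not overlap, against 40.7% of all rows tested. With upper-quartile factors or library size alone in place of TMM, the median over all rows tested was 0.20, the higher share of all calls was 64.6% or 63.5% in place of 50.4%, and the members split into 5 higher and 6 lower in both cases. Changes below are relative to the TMM scale.

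**Figure D1:**
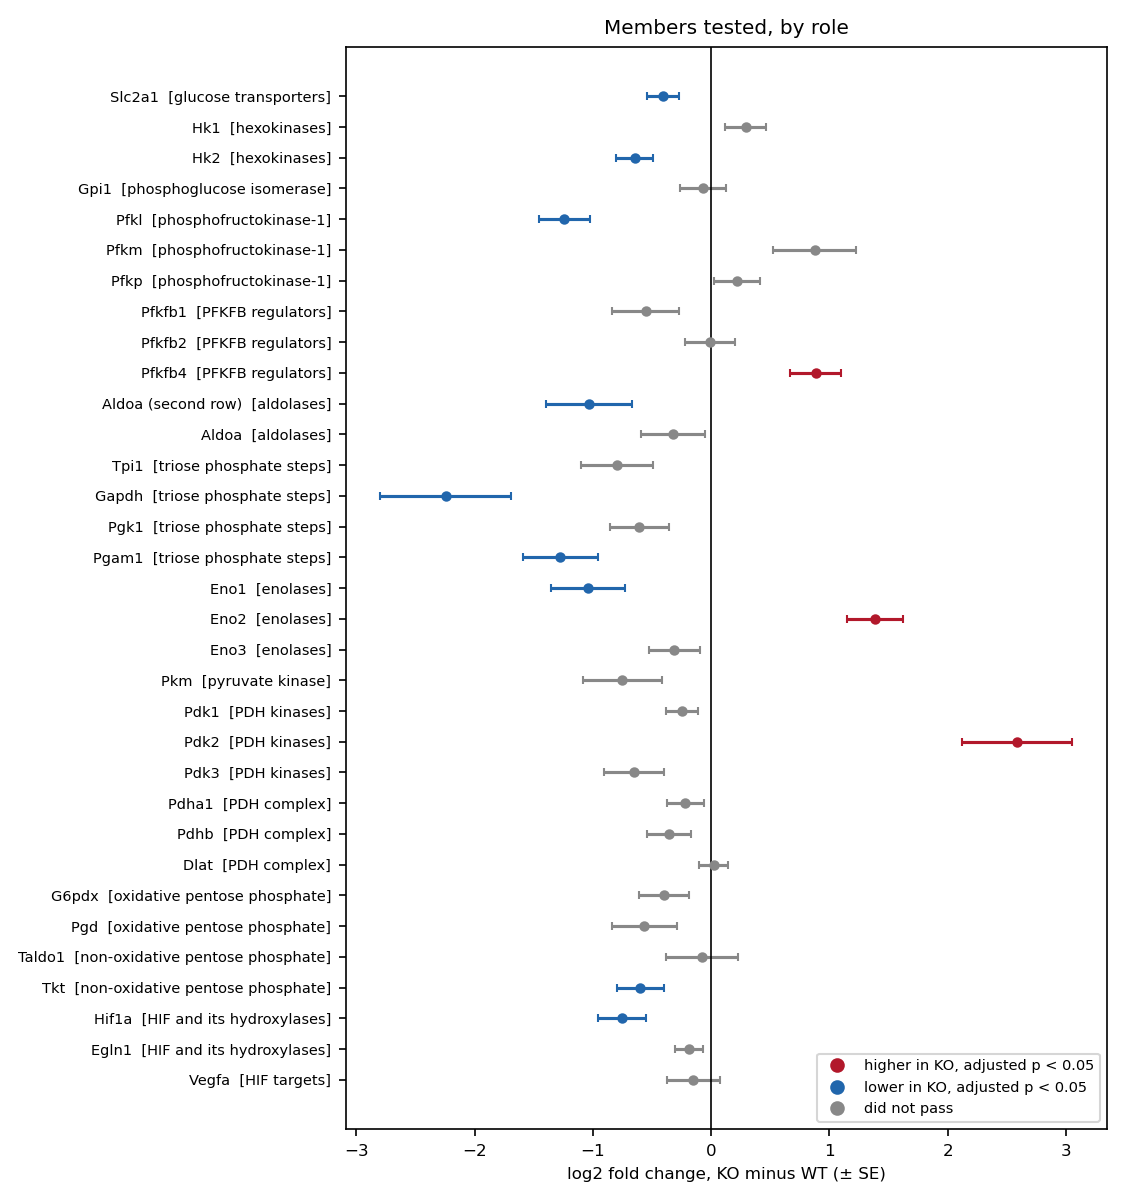
Each row is a gene row that passed the filter on low counts, ordered by its role. The x axis is the log2 fold change of KO over WT with its standard error. Red points (higher in KO) and blue points (lower in KO) passed the test, and grey points did not. Most points lie left of 0, with Eno2, Pdk2 and Pfkfb4 as the red points on the right.

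The genes that rose were Eno2, Pdk2 and Pfkfb4. Eno2 is the neuronal enolase, Pdk2 a kinase that switches off pyruvate dehydrogenase, and Pfkfb4 a bifunctional enzyme that sets the level of fructose 2,6-bisphosphate, the strong activator of phosphofructokinase-1. The genes that fell were Slc2a1, Hk2, Pfkl, Gapdh, Pgam1, Eno1, Tkt, Hif1a and the minor row of Aldoa. They hold 1 or more genes at each of glucose uptake, phosphorylation, the committed step, the later steps of glycolysis, the pentose phosphate pathway and the hypoxia factor itself. This is not a fall at every step: Gpi1, the main Aldoa row, Tpi1, Pgk1, Pkm, G6pdx, Pgd and Taldo1 did not pass. Uptake rests on Slc2a1 and the pentose phosphate pathway on Tkt, whose calls held in 3 and 2 of the 8 fits that left out a library.

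**Figure D2:**
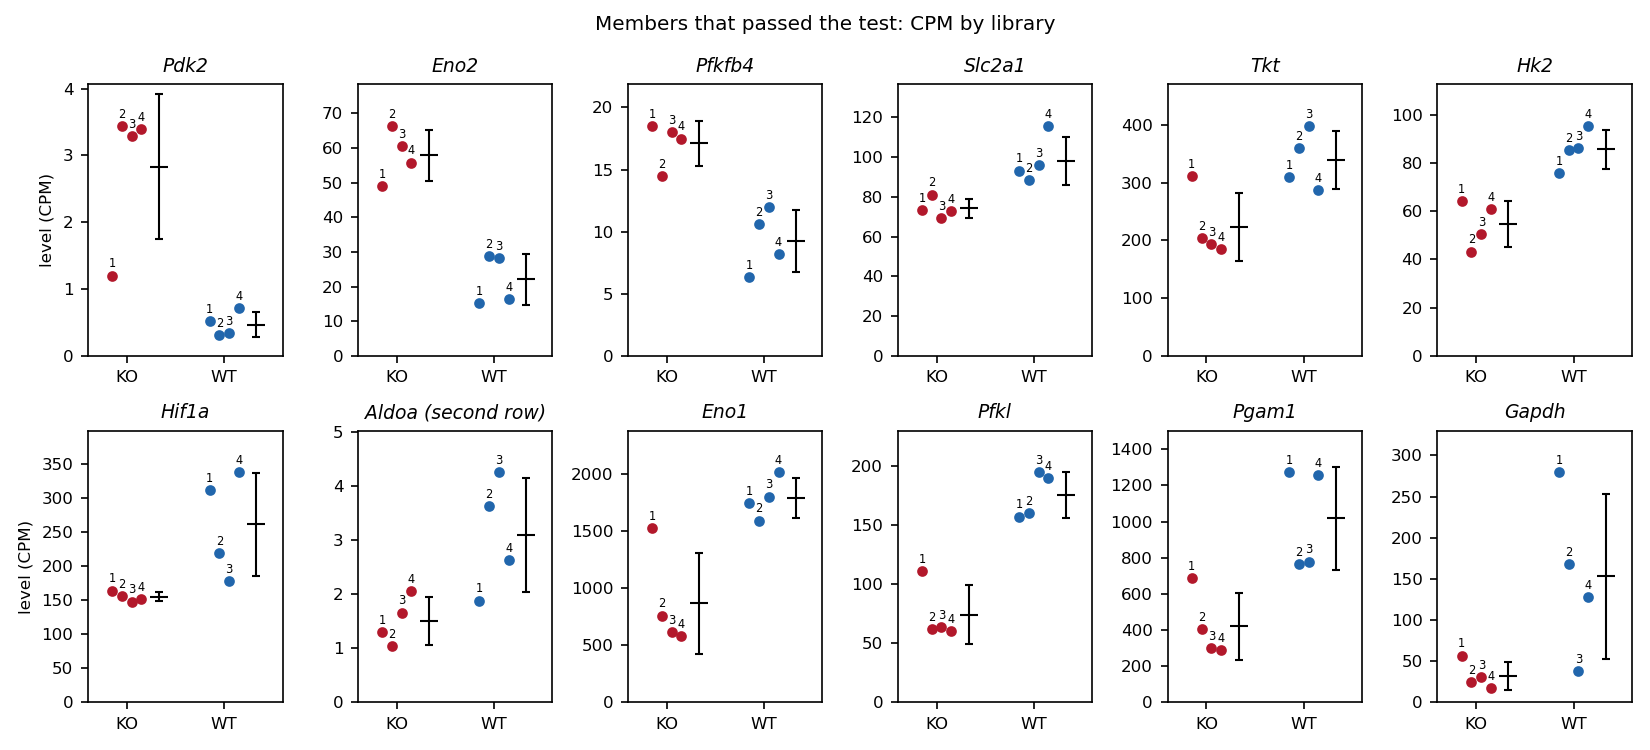
CPM in each library for the 12 rows that passed the test, with KO left of WT in each panel; points are libraries and bars are the mean with its SD (n = 4 each). KO library 1 is the highest KO point in 7 of the 9 panels of rows that fell, and Gapdh, Tkt and the second Aldoa row are the panels in which the genotypes overlap.

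To set the letters of the genes' start regions beside these changes, the 250 bases before the RefSeq start of each gene (GRCm38.p6; each start, where a gene has several) were searched on both strands for ACGTG and GCGTG, the core of the hypoxia response element, and for GGAATG, a core that TEAD factors bind. A hypoxia core and GGAATG can share an end base, CACGTG holds ACGTG on both strands, and a gene counted once however many cores it held. Of the members, 37 had a window in the table and Slc2a3 had none. A hypoxia core was present for 33 of the 37 genes (89.2%), against 61.6% of the 9214 tested genes matched by symbol and 41.5% of all 27025 genes in the table, with a median GC content of 59.6% in the members' windows, 59.6% in those of the tested genes and 52.4% in all. A gene can have several start sites and so several windows, and the members had more of them, 57 for 37 genes against 11745 for the 9214 tested genes. Per window the shares were 73.7% of the members' windows, 55.7% of those of the tested genes and 38.6% of all. Both directions held such matches, with 2 of the 3 genes that rose (Pdk2 and Pfkfb4) and all 8 genes that fell on their main row. Members without a call held them about as often, 18 of 21 genes that did not pass (85.7%) and all 5 that were not tested. GGAATG was found for 6 of the 37 members (16.2%), against 12.4% of the tested genes and 14.4% of all genes. A match is a description of letters and not a binding site. The windows of 2 genes that rose and of 2 that fell are shown, because each belongs to an enzyme family whose isozymes are compared further on. Capitals mark the cores found, and each window is written 5′ to 3′ on the strand of the gene.
Eno2 (chr6:124769674-124769923, minus strand, GGAATG in capitals): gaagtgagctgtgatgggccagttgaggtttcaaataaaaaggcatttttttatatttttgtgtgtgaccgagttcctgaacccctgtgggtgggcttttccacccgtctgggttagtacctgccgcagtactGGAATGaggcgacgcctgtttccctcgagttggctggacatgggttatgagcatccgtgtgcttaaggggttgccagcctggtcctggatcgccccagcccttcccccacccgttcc
Pfkfb4 (chr9:108991652-108991901, plus strand, GCGTG in capitals): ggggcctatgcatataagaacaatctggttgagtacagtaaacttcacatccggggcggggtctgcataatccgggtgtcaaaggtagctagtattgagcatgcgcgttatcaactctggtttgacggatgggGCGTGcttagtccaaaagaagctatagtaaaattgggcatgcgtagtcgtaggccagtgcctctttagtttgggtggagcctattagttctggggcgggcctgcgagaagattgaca
Hk2 (chr6:82774455-82774704, minus strand, CACGT in capitals, which is ACGTG on the opposite strand): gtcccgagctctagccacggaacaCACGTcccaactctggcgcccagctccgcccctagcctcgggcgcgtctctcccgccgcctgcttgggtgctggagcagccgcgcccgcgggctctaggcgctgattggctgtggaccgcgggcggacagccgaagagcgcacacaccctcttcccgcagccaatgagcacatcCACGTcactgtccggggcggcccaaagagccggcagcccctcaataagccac
Pfkl (chr10:78009808-78010057, minus strand, GCGTG in capitals): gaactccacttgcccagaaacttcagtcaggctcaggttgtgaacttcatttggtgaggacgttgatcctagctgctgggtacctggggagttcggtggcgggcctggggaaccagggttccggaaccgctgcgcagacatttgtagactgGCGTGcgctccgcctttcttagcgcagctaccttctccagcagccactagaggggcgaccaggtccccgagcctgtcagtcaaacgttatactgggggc

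Among the transporters and hexokinases that bring in glucose and trap it as glucose 6-phosphate, Slc2a1 and Hk2 fell in KO, and Hk1 did not pass. Slc2a1 (GLUT1, the main glucose transporter of proliferating cells, chromosome 4, 119108711 to 119137983) had 73.3, 81.0, 69.1 and 72.9 CPM in KO libraries 1 to 4, against 93.1, 88.2, 95.7 and 116 CPM in WT libraries 1 to 4. The genotypes did not overlap, and all 4 KO libraries lay below the lowest WT library, WT 2. Its change on the log2 scale was -0.41 ± 0.13 (SE; adjusted p = 0.0348, edgeR). This is the smallest change among the 12 that passed, and the call ended with upper-quartile factors (-0.22, adjusted p = 0.177), with library size alone (-0.22, adjusted p = 0.186), with no filter (adjusted p = 0.0815), with a minimum of 5 CPM (0.0646), with WT libraries 1 and 4, and 2 and 3, summed (0.0928), and without KO library 2, 3 or 4 or WT library 1 or 4. Slc2a3, the high-affinity transporter GLUT3, had no counts in any of the 8 libraries, where 3 counts would be 0.0873 to 0.110 CPM.

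Hk2, the inducible hexokinase of muscle, fat and many tumours (chromosome 6, 82725025 to 82774454), had 64.0, 43.2, 50.4 and 60.7 CPM in KO, against 75.8, 85.2, 86.0 and 95.3 CPM in WT. Every KO library was below every WT library, and the log2 fold change was -0.65 ± 0.16 (adjusted p = 0.0107). Its 2 hypoxia cores lie within the window shown above. Hk1, the widely expressed hexokinase (chromosome 10), had 161, 154, 111 and 103 CPM in KO, against 112, 99.1, 105 and 115 CPM in WT. KO libraries 1 and 2 were above the WT range and KO 3 and 4 were within it, and the value of 0.29 ± 0.17 did not pass (adjusted p = 0.195); it passed with upper-quartile factors (0.47, adjusted p = 0.0368) and with library size alone (0.46, adjusted p = 0.0307). The ratio of Hk2 to Hk1 counts within a library, which no scaling factor touches, was 0.399, 0.280, 0.456 and 0.592 in KO, against 0.674, 0.860, 0.823 and 0.826 in WT. The groups did not overlap, and the mean log2 ratio was lower by 0.93 in KO (difference -0.93, exact two-sided permutation p = 0.0286, adjusted p = 0.0333 over the 7 isozyme pairs in which both genes passed the filter). Per kilobase of merged exons Hk2 made up 37.5 ± 7.16% of the hexokinase level in KO and 53.1 ± 2.73% in WT.

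For these permutation tests 0.0286 is the smallest p that 4 against 4 libraries can give. The test treats the libraries as independent, while WT libraries 1 and 4, and 2 and 3, resembled each other more than the other WT pairs did. With those pairs summed the ratios kept their directions, but no permutation test was run. Of 13 pairs listed, 7 could be tested, and 6 passed with no overlap between genotypes. No such share was computed for other gene pairs. Among single rows 40.7% of all tested did not overlap. The pairs are not independent, because Pfkl, Eno1 and Pdk3 each serve as the lower gene of more than 1 pair. Leaving out any 1 WT library put all 6 at an adjusted p of 0.05 or above (0.05 to 0.0667), with no direction changed, while leaving out a KO library kept all 6. With so few libraries p moves in coarse steps, and the genotypes still did not overlap in these fits. The lost calls therefore do not show that the ratios depend on any 1 WT library.

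At the committed step, phosphorylation of fructose 6-phosphate by phosphofructokinase-1, RNA of 1 of the 3 subunit genes fell and the other 2 did not pass. The subunit make-up of the enzyme itself was not measured. Pfkl, the liver-type subunit (chromosome 10, 77986947 to 78010083, minus strand), had 111, 61.9, 63.6 and 60.2 CPM in KO, against 157, 160.4, 195 and 190.3 CPM in WT. KO library 1 was highest among KO but still below the lowest WT library. Pfkl fell by 1.24 on the log2 scale (SE 0.22, adjusted p = 0.00263), which is 2.37-fold lower in KO. Pfkm, the muscle-type subunit (chromosome 15), had 70.5, 101, 52.6 and 46.8 CPM in KO, against 23.9, 51.7, 51.0 and 20.9 CPM in WT. KO libraries 3 and 4 lay near WT libraries 2 and 3, and the value of 0.88 ± 0.35 did not pass (adjusted p = 0.0694); it passed with upper-quartile factors (adjusted p = 0.0483), library size alone (0.0484) and DESeq2 (0.0327). Pfkp, the platelet-type subunit (chromosome 13), was at 0.22 ± 0.20 (adjusted p = 0.393) with overlapping libraries, 50.9 to 78.2 CPM in KO and 37.8 to 58.2 CPM in WT.

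Within libraries both ratios to Pfkl were higher in KO. The ratio of Pfkm to Pfkl counts was 0.633, 1.63, 0.826 and 0.777 in KO, against 0.152, 0.323, 0.262 and 0.110 in WT, a 4.65-fold difference of the means on the log2 scale (2.22, exact permutation p = 0.0286, adjusted p = 0.0333). KO 2 alone had more Pfkm than Pfkl counts. The ratio of Pfkp to Pfkl was 0.702, 0.896, 0.809 and 0.844 in KO and 0.312, 0.363, 0.194 and 0.305 in WT, a 2.83-fold difference with the same p and adjusted p. On the per-kilobase level Pfkl was 31.5 ± 7.23% of the 3 subunits in KO and 64.5 ± 7.94% in WT, while Pfkm was 56.0 ± 9.17% in KO and 26.1 ± 9.18% in WT. Per kilobase, Pfkm thus had the largest mean share in KO and Pfkl in WT. That order in KO, and the shares of all 3, rest on the merged exon lengths, 6.675 kb for Pfkl, 3.34 kb for Pfkm and 13.4 kb for Pfkp. In CPM the KO mean of Pfkl (74.3) stayed above that of Pfkm (67.7), and that of Pfkp was 59.0.

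Of the PFKFB enzymes that set the activator of this step, Pfkfb4 (chromosome 9, 108991778 to 109032228, plus strand) had 18.5, 14.5, 18.0 and 17.5 CPM in KO, against 6.33, 10.6, 12.0 and 8.20 CPM in WT. The KO libraries were all above the highest WT library, WT 3, and the log2 fold change was 0.88 ± 0.22 (adjusted p = 0.0109). Pfkfb1, which is best known from liver, was at 2.17 to 3.98 CPM in KO and 3.48 to 4.60 CPM in WT (-0.55 ± 0.28, adjusted p = 0.139), and Pfkfb2, best known from heart, at 5.72 to 10.1 CPM in KO and 8.02 to 8.61 CPM in WT (-0.01 ± 0.21, adjusted p = 0.977). Pfkfb3, the inducible form common in tumours, did not pass the filter, with 0, 0, 5 and 7 counts in KO and 13, 0, 7 and 0 in WT. Per kilobase, Pfkfb4 was 65.7 ± 2.70% of the 4 enzymes in KO and 46.3 ± 8.07% in WT.

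The isomerase of the second step, Gpi1, was at 591 to 883 CPM in KO and 615 to 849.8 CPM in WT (-0.07 ± 0.19, adjusted p = 0.784), and its sign changed with the scaling. Aldoa, the main aldolase of CT26 cells, had 876, 567, 431 and 386 CPM in KO on its main row (chromosome 7, 126795234 to 126800751), against 744, 623, 576 and 886 CPM in WT, and it did not pass (-0.32 ± 0.27, adjusted p = 0.354). KO library 1 was near the top of the WT range, and the other KO libraries were below the lowest WT library. The second Aldoa row (ENSMUSG00000114515, chromosome 7, 126800790 to 126809108, directly upstream on the same strand) had 1.30, 1.04, 1.66 and 2.05 CPM in KO and 1.88, 3.62, 4.25 and 2.63 CPM in WT. It passed at an adjusted p of 0.0431 (-1.03 ± 0.36), but KO library 4 lay above WT library 1, and 7 of the 8 fits that left out a library lost the call. Aldoc, the brain aldolase, did not pass the filter, with 22 counts over the KO libraries and 50 over the WT libraries.

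In the triose phosphate steps Gapdh and Pgam1 fell, and Tpi1 and Pgk1 did not pass. Pgam1, which moves the phosphate of 3-phosphoglycerate (chromosome 19, 41911923 to 41918660), had 687, 406, 300.0 and 289 CPM in KO, against 1272, 766, 778 and 1255 CPM in WT. No KO library reached the lowest WT library, and the log2 fold change was -1.27 ± 0.32 (adjusted p = 0.0112). Gapdh, the dehydrogenase that makes NADH (chromosome 6, 125161715 to 125166467), had 56.6, 24.5, 30.3 and 17.7 CPM in KO, against 279, 168, 38.3 and 127 CPM in WT. WT library 3 was within the KO range, so the groups overlapped, and the log2 fold change was -2.25 ± 0.55 (adjusted p = 0.0105). Per kilobase the Gapdh row was at 7.81 ± 4.12 CPM in KO and 37.1 ± 24.2 CPM in WT, far under its neighbours in the pathway, Tpi1 (167 ± 88.4 in KO and 290 ± 20.5 in WT) and Pgk1 (319 ± 118 in KO and 486 ± 59.2 in WT). Gapdh has many processed copies in the mouse genome and the sources used here do not give the treatment of reads that match several places, so its level and change are uncertain.

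Tpi1, which interconverts the triose phosphates, had 819, 400.1, 332 and 289.9 CPM in KO, against 729, 798, 867 and 803 CPM in WT (-0.80 ± 0.31, adjusted p = 0.0604). Pgk1, the first ATP-producing step, had 1111, 593, 596 and 563 CPM in KO, against 902, 1108, 1215 and 1134 CPM in WT (-0.61 ± 0.25, adjusted p = 0.0722). For both genes KO library 1 lay within the WT range and KO libraries 2 to 4 lay below it. Pkm, pyruvate kinase, showed the same layout, with 3187, 2060.5, 1201 and 1077 CPM in KO and 3097, 3075, 3229 and 3279 CPM in WT (-0.75 ± 0.33, adjusted p = 0.094). Per kilobase its mean level was 376 ± 195 CPM in KO and 634 ± 19.8 CPM in WT.

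The enolases, which make phosphoenolpyruvate, moved apart. Eno1, the ubiquitous form (chromosome 4, 150236721 to 150248879), had 1524, 761, 613 and 579 CPM in KO, against 1745, 1592, 1802 and 2014 CPM in WT. KO 1 was just under the lowest WT library and the other KO libraries were far below it (-1.04 ± 0.31, adjusted p = 0.0235). The call ended without KO library 2 (adjusted p = 0.0688), 3 (0.0597) or 4 (0.0653). A retrocopy, Eno1b, has a row of its own that can share reads with Eno1; it was at -0.95 ± 0.32 (adjusted p = 0.0363), and the 2 rows summed gave -1.01 ± 0.32 (adjusted p = 0.0286), a sum added after the data were seen. Eno2 (chromosome 6, 124760053 to 124769673, minus strand), whose window above holds GGAATG and no hypoxia core, had 48.9, 66.3, 60.5 and 55.7 CPM in KO, against 15.2, 28.7, 28.2 and 16.4 CPM in WT. Each KO library was above each WT library, and the log2 fold change was 1.39 ± 0.23 (adjusted p = 0.0024), which is 2.61-fold higher in KO. Eno3, the muscle form, was at 94.1 to 174 CPM in KO and 125 to 169 CPM in WT (-0.31 ± 0.21, adjusted p = 0.267).

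Against Eno1 within each library, Eno2 counts were 0.0321, 0.0872, 0.0988 and 0.0962 in KO and 0.00874, 0.0181, 0.0157 and 0.00813 in WT. The 6.03-fold difference of the means on the log2 scale (2.59, exact permutation p = 0.0286, adjusted p = 0.0333) left no overlap, with KO library 1 the lowest of the KO libraries. The ratio of Eno3 to Eno1 differed 1.75-fold with the same p and adjusted p, from 0.114 to 0.163 in KO and from 0.0645 to 0.101 in WT. In level Eno1 stayed the main enolase: per kilobase it was 65.4 ± 4.73% of the 3 in KO and 78.8 ± 3.70% in WT, with Eno3 at 25.4 to 31.2% in KO and 16.5 to 23.5% in WT, and Eno2 at 5.75 ± 2.08% in KO and 1.12 ± 0.393% in WT. These shares rest on merged exon lengths of 5.379 kb for Eno1, 4.705 kb for Eno2 and 1.739 kb for Eno3, and they leave out the Eno1b row. In counts Eno3 stayed at the ratios to Eno1 given above. Eno2, Tpi1 and Gapdh lie on the same strand of one stretch of chromosome 6, between 124760053 and 125166467. Of these 3 neighbours Eno2 rose, Gapdh fell and Tpi1 did not pass.

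**Figure D3:**
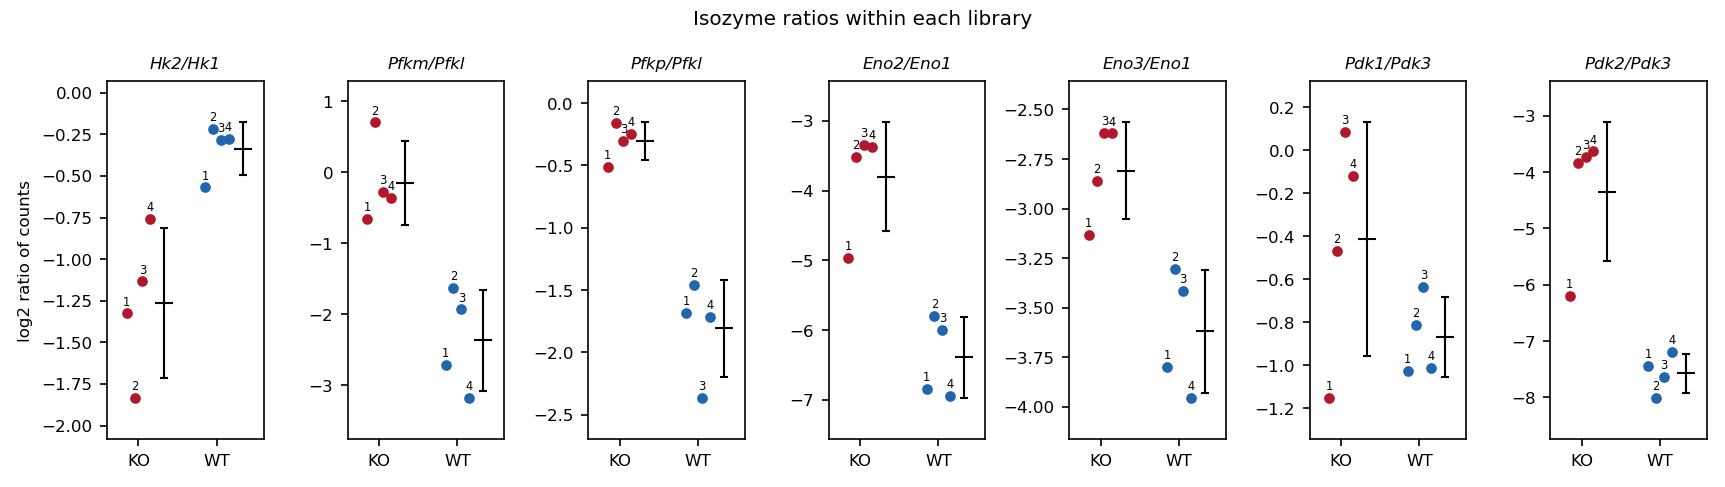
The y axis is the log2 ratio of counts of 2 isozymes within a library, with KO left of WT in each of the 7 panels; points are libraries and bars are the mean with its SD (n = 4 each). KO and WT do not overlap in 6 panels, and they overlap for Pdk1 over Pdk3.

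Past pyruvate, 1 of the 3 tested kinases that inhibit the pyruvate dehydrogenase complex rose, and no subunit of the complex passed. Pdk2 (chromosome 11, 95026258 to 95041354) had 1.20, 3.44, 3.29 and 3.39 CPM in KO, against 0.515, 0.307, 0.337 and 0.710 CPM in WT. All 4 KO libraries lay above WT 4, the highest WT library, with KO 1 nearest to it, and the log2 fold change was 2.59 ± 0.47 (adjusted p = 0.00298), the largest of the members at 6.03-fold, from a low level. Pdk1, known as a HIF target, was at 35.8 to 46.7 CPM in KO and 45.4 to 53.0 CPM in WT (-0.25 ± 0.13, adjusted p = 0.161). Pdk3 had 89.1, 49.5, 43.9 and 42.3 CPM in KO, against 92.4, 83.7, 70.7 and 107 CPM in WT (-0.65 ± 0.25, adjusted p = 0.0609). Pdk4 had no counts in any library. The ratio of Pdk2 to Pdk3 was 0.0136, 0.0698, 0.0751 and 0.0806 in KO and 0.00577, 0.00388, 0.0050 and 0.0068 in WT, a 9.33-fold difference (log2 3.22, exact permutation p = 0.0286, adjusted p = 0.0333). The ratio of Pdk1 to Pdk3 overlapped between genotypes (log2 difference 0.46, exact permutation p = 0.171, adjusted p = 0.171). Pdk3 kept the largest share per kilobase, 76.9 ± 6.80% in KO and 84.4 ± 1.64% in WT, against 3.58 ± 1.77% in KO and 0.354 ± 0.0904% in WT for Pdk2.

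Of the complex's subunits, Pdha1 was at 282 to 411 CPM in KO and 351 to 401 CPM in WT (-0.22 ± 0.16, adjusted p = 0.295). Pdhb was at 88.7 to 142 CPM in KO and 111 to 146 CPM in WT (-0.36 ± 0.18, adjusted p = 0.144), and Dlat at 109.6 to 136 CPM in KO and 111 to 120.1 CPM in WT (0.02 ± 0.12, adjusted p = 0.893). For all 3 the highest KO value was that of KO library 1.

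In the pentose phosphate pathway 1 of 4 members fell, where 20.6% of all rows did. Tkt, transketolase of the non-oxidative branch (chromosome 14, 30548359 to 30574720), had 312, 204, 193 and 185 CPM in KO, against 309, 360.0, 398 and 287 CPM in WT. KO library 1 was within the WT range, the others were below it, and the log2 fold change was -0.60 ± 0.20 (adjusted p = 0.0364). That call ended with upper-quartile factors (-0.44, adjusted p = 0.0928), with library size alone (-0.44, adjusted p = 0.0789), and when any library other than KO 1 or WT 4 was left out. Taldo1, transaldolase, had 267, 159, 148 and 140.2 CPM in KO and 115, 203, 289 and 146 CPM in WT (-0.08 ± 0.31, adjusted p = 0.859). G6pdx and Pgd, the NADPH-producing enzymes of the oxidative branch, did not pass. G6pdx was at 118 to 189.7 CPM in KO and 136 to 239 CPM in WT (-0.40 ± 0.21, adjusted p = 0.156), and Pgd had 517, 281, 232 and 209 CPM in KO and 442, 471, 528 and 395 CPM in WT (-0.57 ± 0.28, adjusted p = 0.123).

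Of the oxygen-sensing genes, Hif1a (chromosome 12, 73901375 to 73947530) had 164, 156, 148 and 152 CPM in KO, against 312, 219, 178 and 337 CPM in WT. The KO libraries were close together, all below WT 3, the lowest WT library, and the WT libraries were spread, with WT 1 and 4 highest. The log2 fold change was -0.76 ± 0.20 (adjusted p = 0.0159), and KO library 1 lay with the other KO libraries here. HIF1A is controlled mainly as a protein, which these data do not measure. Egln1 (PHD2), the main HIF hydroxylase, was at 81.5 to 92.4 CPM in KO and 91.4 to 102 CPM in WT (-0.18 ± 0.12, adjusted p = 0.23). Egln3 (PHD3), itself a HIF target, had no counts in any library. Vegfa, the angiogenic growth factor, had 137, 133, 213 and 233 CPM in KO and 179, 226, 156 and 234 CPM in WT (-0.15 ± 0.23, adjusted p = 0.611). Car9, the carbonic anhydrase often used as a hypoxia marker, did not pass the filter, with 0, 7, 19 and 19 counts in KO and 0, 6, 13 and 6 in WT. Car9 and Egln3 were thus at or near 0 in both genotypes.

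Because KO library 1 recurs in these values, its place was counted. It was the highest KO library in 25 of the 33 rows tested (75.8%), against 40.9% of all rows tested and 71.3% of all rows that fell. Within the 10 steps of glycolysis from hexokinase to pyruvate kinase it was highest in 13 of 16 rows. It lay within the WT range in 13 of the 33 rows (39.4%), against 34.8% of all rows. Without KO library 1, 3 members rose and 18 fell, against 24.7% and 24.6% of the 13831 rows then tested, and 49.4% were called in either direction. Of the 12 calls 11 were kept and 10 were added, all lower in KO: Aldoa (-0.63, adjusted p = 0.0331), Tpi1 (-1.25, adjusted p = 0.000658), Pgk1 (-0.92, adjusted p = 0.00202), Pkm (-1.15, adjusted p = 0.00609), Pgd (-0.95, adjusted p = 0.00213), Eno3 (-0.57, adjusted p = 0.0119), Pdk3 (-0.98, adjusted p = 0.00193), Pfkfb1, Pdha1 and Pdhb. The proliferation markers, at 2261 CPM in KO library 1 and 493 to 1005 CPM in the other KO libraries, moved with this pattern, and their part in it was not tested. Hk2, Pfkl, Pfkfb4, Gapdh, Pgam1, Eno2, Pdk2 and Hif1a passed in each of the 8 fits that left out 1 library.

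**Figure D4:**
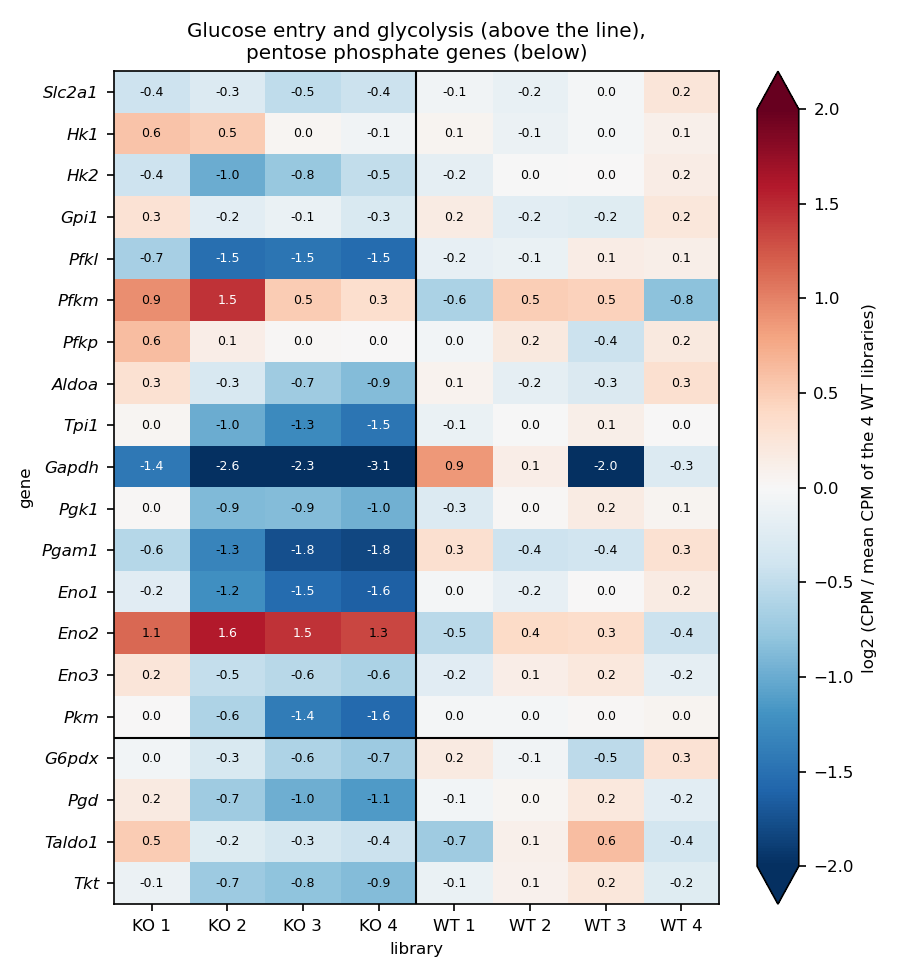
Colours give the log2 of CPM over the mean of the 4 WT libraries, for genes of glucose entry and glycolysis above the line and of the pentose phosphate pathway below it, with KO libraries left of WT libraries. KO libraries 2 to 4 are below the WT mean for Tpi1, Pgk1, Pgam1, Eno1 and Pkm, while KO library 1 is near it for Tpi1, Pgk1 and Pkm, and Eno2 is above it in all 4 KO libraries.

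The other genes of these pathways were read from lists of their own. Of 26 other glycolysis and glucose-handling genes, 13 were tested, 4 rose and 3 fell, so 53.8% were called, against 41.6% of all rows, with a median log2 fold change of -0.13. Slc2a6, another member of the glucose transporter family, had 18.9, 18.0, 14.6 and 14.2 CPM in KO, against 3.20, 6.35, 7.82 and 4.72 CPM in WT, with no overlap (1.57 ± 0.27, adjusted p = 0.00265). It moved opposite to Slc2a1, as did Slc2a8 of the same family (1.02 ± 0.35, adjusted p = 0.0424). G6pc3, a glucose 6-phosphatase, rose (0.68 ± 0.20, adjusted p = 0.0215), and the phosphoglucomutases Pgm1 (-0.68 ± 0.20, adjusted p = 0.0249) and Pgm2 (-0.66 ± 0.20, adjusted p = 0.0252) fell. Pgam2, the muscle paralog of Pgam1, rose at a low level, 3.15 to 5.21 CPM in KO and 1.74 to 2.54 CPM in WT (0.88 ± 0.28, adjusted p = 0.0301).

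Of 11 other pentose phosphate genes, 9 were tested, 2 rose and 1 fell (33.3% called, against 41.6% of all rows), with a median of -0.25. Prps1, which turns ribose 5-phosphate into the precursor of nucleotides, had 70.7, 48.7, 50.4 and 51.1 CPM in KO, against 114, 87.1, 104 and 130.0 CPM in WT. All KO libraries lay below all WT libraries (-0.98 ± 0.18, adjusted p = 0.00309). Shpk, sedoheptulokinase (1.71 ± 0.47, adjusted p = 0.0161), and Rbks, ribokinase (0.87 ± 0.30, adjusted p = 0.0388), rose, and Pgls of the oxidative branch did not pass (-0.50 ± 0.24, adjusted p = 0.114). Of 13 other genes of pyruvate oxidation and the citric acid cycle, 12 were tested and 3 fell, with a median of -0.25. They are 25% of those tested, against 20.6% of all rows lower and 41.6% called in either direction, a share near the background. The 3 were Idh3a (-0.68 ± 0.23, adjusted p = 0.0381), Cs, citrate synthase (-0.66 ± 0.23, adjusted p = 0.0404), and the phosphatase subunit Pdp2 (-0.58 ± 0.20, adjusted p = 0.0446). The fourth by p, Ogdh, did not pass (-0.50 ± 0.20, adjusted p = 0.0649). KO library 1 was the highest KO library for each of these 4 genes, with 608 CPM of Cs against 315 to 359 CPM in KO libraries 2 to 4 and 578 to 683 CPM in WT.

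Of 13 other factors of the HIF pathway, 10 were tested, 1 rose and 1 fell (20% called, against 41.6% of all rows), with a median of 0.20, and both belong to the machinery that destroys HIF1A. Vhl, which recognises the hydroxylated protein, had 40.0, 41.7, 35.5 and 34.9 CPM in KO, against 21.7, 30.1, 26.8 and 22.4 CPM in WT, with no overlap (0.59 ± 0.15, adjusted p = 0.0128). Cul2, the scaffold of the same ubiquitin ligase, had 64.0, 54.6, 55.8 and 59.7 CPM in KO, against 93.9, 82.7, 80.0 and 106 CPM in WT, also with no overlap (-0.63 ± 0.14, adjusted p = 0.00683). These 2 partners changed in opposite directions. Arnt2 (-0.83 ± 0.38, adjusted p = 0.101) and Cited2 (-0.84 ± 0.41, adjusted p = 0.124) did not pass, and Hif3a had no counts.

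Of 43 other genes known as HIF targets, 35 were tested, 5 rose and 7 fell, with a median of -0.26, so 34.3% were called, against 41.6% of all rows. Siah2, a ubiquitin ligase that acts on the EGLN enzymes, had 39.3, 22.0, 31.1 and 31.9 CPM in KO, against 69.8, 84.7, 70.7 and 72.8 CPM in WT (-1.26 ± 0.18, adjusted p = 0.00132). Edn1, the vasoconstrictor endothelin, was at 2.33 to 3.33 CPM in KO and 6.13 to 10.1 CPM in WT (-1.34 ± 0.25, adjusted p = 0.00345), and Stc2, a secreted glycoprotein, at 0.569 to 1.07 CPM in KO and 2.39 to 3.13 CPM in WT (-1.79 ± 0.34, adjusted p = 0.0038). Anxa1, the annexin that dampens inflammation, had 474, 516, 526 and 499 CPM in KO, against 221, 303, 318 and 250.2 CPM in WT (0.88 ± 0.16, adjusted p = 0.00282). Each of the 4 had no overlap between genotypes, and they did not move in one direction.

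**Figure D5:**
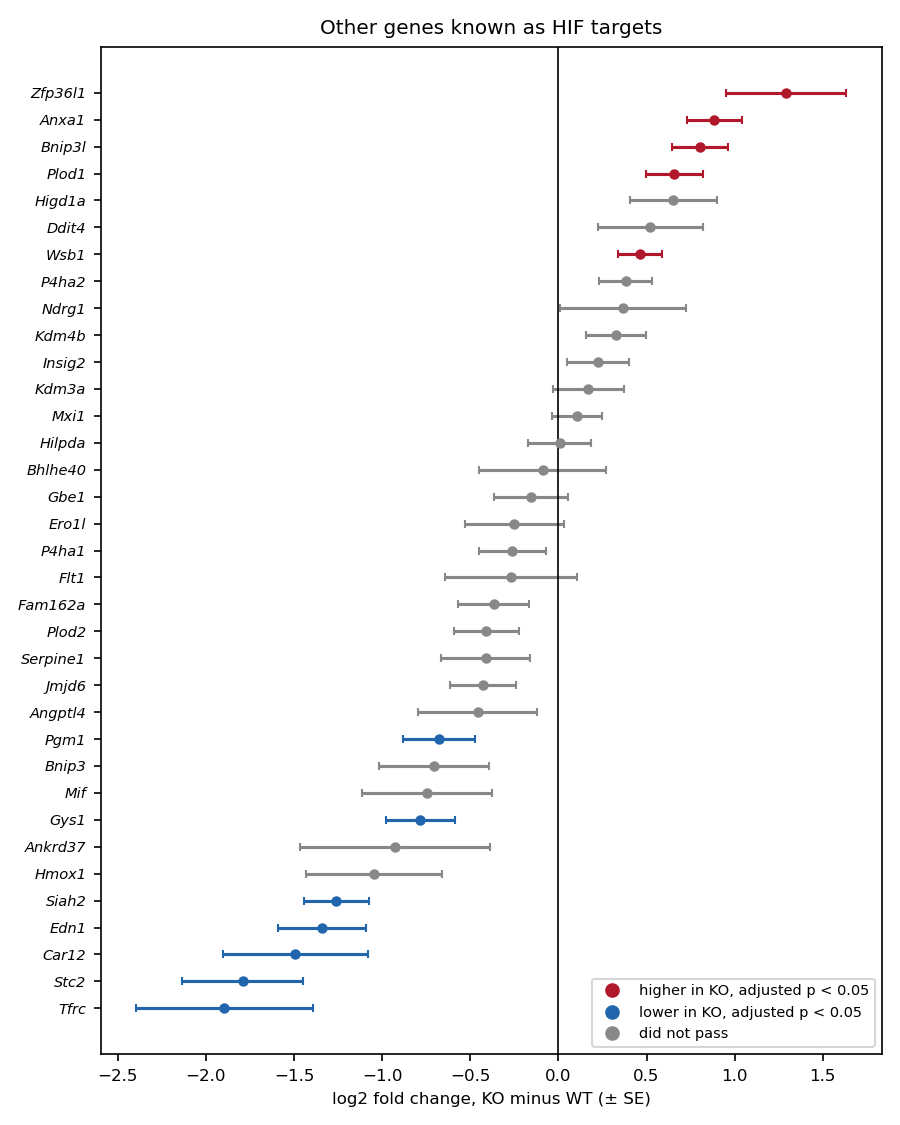
Log2 fold change of KO over WT with its standard error for the 35 other HIF target genes that were tested. Red points (higher in KO) and blue points (lower in KO) passed the test, and grey points did not. Anxa1 is among the 5 red points right of 0, and Siah2, Edn1 and Stc2 are among the 7 blue points left of it.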

How the data were processed

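RNA from 8 CT26 libraries, 4 KO and 4 WT, was sequenced. The submitters' processing notes name HISAT2, StringTie and GRCm38 with no version; the counting program and its strand setting were not given in these sources. What the authors deposited were whole-number counts per gene in 2 identical tables, of which 1 was used: 22036 annotated rows, 22022 of them found in GENCODE release M21, which gave coordinates and exon lengths, and 4606 unannotated loci.

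The whole table was filtered with filterByExpr (minimum count 10), scaled with TMM and tested with edgeR 4.0.16 (R 4.3.3), KO minus WT, two-sided, with Benjamini-Hochberg adjustment over all rows and a threshold of 0.05. Isozyme ratios (0.5 added to each count) were tested over the 70 assignments of libraries. Alternatives used limma 3.58.1, DESeq2 1.42.0, other scalings and filters, and each library left out. Members and lists were chosen with earlier results of these data known. Members past the threshold are given per library, and each other list by its 4 tested genes with the smallest p, with Pgam2 and Slc2a8 as paralogs. Library totals of 29679405 to 32774905 set the precision, and floors of 3 counts cover counting error only. Shares per kilobase rest on merged exon lengths, which can differ from the length of the transcripts present. Promoter sequences come from RefSeq (GRCm38.p6). Without strand, reads of overlapping or antisense genes could not be separated.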

Additional observations from a re-analysis of the deposited data

Results flagged for a closer look

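In 12 of 66 groups of 4 libraries (33 rows in each genotype), 1 library lay far from the other 3 by Dixon's test. Chance does this in about 1 of 20 independent groups, but these groups share the same 8 libraries. The flagged share over all rows was not computed, so no excess in these genes can be read from the count. Over all rows tested, KO library 1 was the highest KO library in 40.9% and the lowest in 37.6%. In 11 of the 12 flagged groups the library that lay apart was KO library 1. It was above the other KO libraries for Pfkl (111 CPM, the others 60.2 to 63.6), Pfkp (78.2 CPM, the others 50.9 to 55.5), Pfkfb1 (3.98 CPM, the others 2.17 to 2.38), Pgk1 (1111 CPM, the others 563 to 596) and Eno3 (174 CPM, the others 94.1 to 105). It was likewise above them for Pdk3 (89.1 CPM, the others 42.3 to 49.5), Pdha1 (411 CPM, the others 282 to 300.5), Pdhb (142 CPM, the others 88.7 to 91.8), Taldo1 (267 CPM, the others 140.2 to 159) and Tkt (312 CPM, the others 185 to 204). For Pdk2 it was below them, at 1.20 CPM, with the others at 3.29 to 3.44 CPM. In WT, library 1 was below the rest for Dlat, at 111 CPM, with the others at 119 to 120.1 CPM.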

How the results depend on the processing

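The counts of 3 members higher, 9 lower and 12 called, of 5513 calls in all, moved by over 1.5 times as follows. Scaling by upper quartiles, or by library size alone, gave 5 higher. At an adjusted p under 0.01, 1 was lower and 3 called (2736 in all); against a log2 fold change of 0.5, 3 lower and 5 called (2603 in all); with WT libraries 1 and 4, and 2 and 3, summed, 3 lower and 6 called (3134 in all), where Hk2 (adjusted p = 0.0518), Pgam1 (0.0507) and Eno1 (0.0936) were among those lost. DESeq2 called 17 members and limma-voom 16, with Tpi1, Pgk1, Pkm and Pdk3 added by both. Leaving out 1 library gave 3 higher in each of the 8 fits, 5 to 18 lower and 8 to 21 called; 18 and 21 were without KO library 1, and 5 lower without KO library 2, 3 or 4. Same-numbered libraries did not deviate together from their genotype means (r from -0.032 to -0.003). KO and WT libraries of one number were in no case the closest match. The labels do not say whether a number marks a shared day or culture, and this check cannot exclude it. With the replicate block 4 members were higher and 8 lower, 12 called, of 4683 in all, but the set changed: 9 of the 12 were kept, Slc2a1 (adjusted p = 0.0951), the second Aldoa row (0.0913) and Tkt (0.0537) were lost, and Pfkm (0.0264), Tpi1 (0.0456) and Pdk3 (0.0436) were added. By sign-flip over same-numbered differences none of the 7 isozyme ratios passed (adjusted p = 0.146 at the lowest, with the design unable to go below 0.125). Leaving out 1 library gave 0 to 7 calls by permutation, 0 without any 1 WT library, where p moves in coarse steps. Signs changed only for members that did not pass: Gpi1 was at 0.107 with upper-quartile factors, 0.106 with library size alone and 0.003 with at least 5 CPM, and from -0.228 to 0.006 without 1 library. Taldo1 was at 0.073 and 0.064, and Vegfa at 0.035 and 0.045, under those 2 scalings, and Taldo1 ran from -0.351 to 0.186 without 1 library. Pfkfb2 was at 0.002 with DESeq2 size factors and with DESeq2, 0.177 with upper-quartile factors, 0.183 with library size alone, 0.011 with no filter, 0.076 with at least 5 CPM and 0.023 with annotated genes only, and from -0.112 to 0.117 without 1 library. Dlat was at -0.011 with the WT pairs summed and from -0.061 to 0.071 without 1 library. The cause of these changes was not tested. Low rows such as Pdk2, Pfkfb3, Aldoc and Car9 are limited by depth.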

Other observations

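Ratios added after the values were seen, with no test, were those of Pfkfb4 to Pfkfb2, at 3.23, 1.63, 2.16 and 1.72 in KO libraries 1 to 4 and 0.736, 1.25, 1.47 and 1.02 in WT libraries 1 to 4, and of Eno2 to the sum of Eno1 and its retrocopy Eno1b, at 0.0212, 0.0562, 0.0666 and 0.0635 in KO and 0.00622, 0.0119, 0.00977 and 0.00571 in WT. Neither overlapped between genotypes. The ratio of Eno1b to Eno1 was 0.483 to 0.553 in KO and 0.405 to 0.603 in WT, so the KO libraries lay within the WT range.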
